A study of Arabidopsis thaliana with 4 samples.

Results

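The SAUR (small auxin-up RNA) family of Arabidopsis thaliana was followed through 2 histone marks in leaf and callus. Members were all nuclear protein-coding loci whose symbol or synonym is SAUR followed by a number, which took 80 loci of the 27444 such genes in the RefSeq gene table (assembly TAIR10.1). The 80 loci carry the 79 names SAUR1 to SAUR79, because SAUR21 is attached to both AT5G18030 and AT5G01830 and SAUR68 to both AT1G29490 and AT1G29510. These 4 loci are given by locus below, and SAUR67 is a further name of AT1G29510. SAUR-like loci without a number in their name are not members.

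SAUR genes encode small, mostly intronless, short-lived proteins that are among the fastest transcripts to respond to auxin. The best studied members bind and inhibit D-clade PP2C phosphatases, which keeps plasma membrane proton pumps phosphorylated and active, acidifies the cell wall and lets cells expand. Other members respond to light, temperature, brassinosteroid, gibberellin or abscisic acid, and several take part in leaf growth and leaf senescence. Both marks followed here, acetylated histone H3 (H3ac) and histone H3 trimethylated at lysine 4 (H3K4me3), are found at the 5′ part of genes in use.

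The groups were mature rosette leaf and callus derived from leaf explants, both of ecotype Col-0 with treatment labelled none, each profiled by chromatin immunoprecipitation sequencing with an antibody to H3ac and with one to H3K4me3. Explants were cut from seedlings aged 2 weeks and kept for 15 days on the medium abbreviated CIM in the labels, and the leaf libraries came from the parental leaves, for which the labels give the same seedlings and no other age. Tissue and time on this medium change together and cannot be told apart. There was 1 library for each tissue and mark (4 libraries in all), so no comparison below has a replicate check and none has a test across samples. These are bulk tissues, in which fewer cells carrying a mark and less of the mark in each cell cannot be told apart.

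The authors' merged regions numbered 20264 for H3ac and 18564 for H3K4me3, and total depth is unknown. From the spacing of the tag values the callus library was 1.369 times as deep as the leaf library for H3ac and 1.016 times for H3K4me3. Most marker genes followed the labels for H3K4me3. Of 13 leaf markers, 9, such as RBCS1A and CAB2, had regions called in leaf alone, against 2.90% of all genes with a region. Regions of 4 were called in both tissues, and 0 of the 13 were listed as higher in callus. Of 12 callus and root stem cell markers, 10, such as PLT1 and WOX11, were listed as higher in callus, against 8.01% of all genes with a region. The marker lists were chosen with earlier results of these data known, so they are no independent check of the labels. For H3ac only 7 of the 13 leaf markers had a region, called in leaf alone at 3, in both tissues only at 2 and as a mixture at 2. RBCS1A was among those called in both tissues only, and CAB2 had no H3ac region. Of the 12 callus markers, 10 had an H3ac region and 7 were listed as higher. Over all genes with an H3ac region, 3.26% were in leaf alone and 7.03% were listed. LBD29 had no region of either mark, and WOX5 had both marks called in both tissues and was listed for neither.

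A region was counted for a SAUR gene when it overlapped the gene body or the 500 bp on either side. The authors called regions in each tissue and merged them, so each region was called in leaf alone, in callus alone or in both. A region called in leaf alone carries a score from the authors but no tag numbers for the 2 tissues. Tag numbers and folds are in the authors' deposited table of regions higher in callus, which lists a region only when a nucleosome-sized window at its centre held 2-fold or more tags in callus. Leaf is therefore described by calls, callus by calls and folds, and the call in leaf alone is no measure of how much a mark differed.

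Most SAUR genes with a mark had it in both tissues, but H3K4me3 at the close copies of SAUR19 to SAUR24, SAUR26 to SAUR29 and SAUR61 to SAUR68 was called mainly in leaf alone. H3K4me3 regions reached 50 of the 80 members (62.5%), against 73.3% of all protein-coding genes. H3ac regions reached 36 members (45.0%), against 69.2% of all genes. Neither mark had a region at 27 members (33.8%), against 25.0% of all genes. SAUR genes are short, with a median length of 815 bp against 2078 bp over all genes, and these shares were not matched on length.

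Among members with an H3K4me3 region, 28 had regions called in both tissues only, 13 in leaf alone, 6 in callus alone, and 3 had a mixture. The 13 members with H3K4me3 in leaf alone made up 26.0% of the 50, against 2.90% of all genes with an H3K4me3 region. The 6 members in callus alone made up 12.0%, against 3.99% of all genes. The corresponding H3ac counts were 24 in both tissues only, 4 in leaf alone, 5 in callus alone and 3 mixed. For H3ac leaf alone the share was 11.1% of the 36, against 3.26% of all genes, and for callus alone it was 13.9% against 5.37%. Without the close copies SAUR19 to SAUR24 and SAUR61 to SAUR68, H3ac in leaf alone fell to 1 of 31 members (3.23%), near the share of all genes, and H3K4me3 in leaf alone to 6 of 40 (15.0%). SAUR26 to SAUR29 were not left out here, so SAUR26 and SAUR27 remain among these 6. With all 80 members kept but only regions at or above the median score of their list, leaf alone took 0 of 13 for H3ac and 1 of 9 for H3K4me3. The shares over all genes under that limit were 0.494% and 0.565%. Calls in both tissues only took 56.0% of members for H3K4me3 and 66.7% for H3ac, against 87.7% and 80.1% of all genes.

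**Figure D1:**
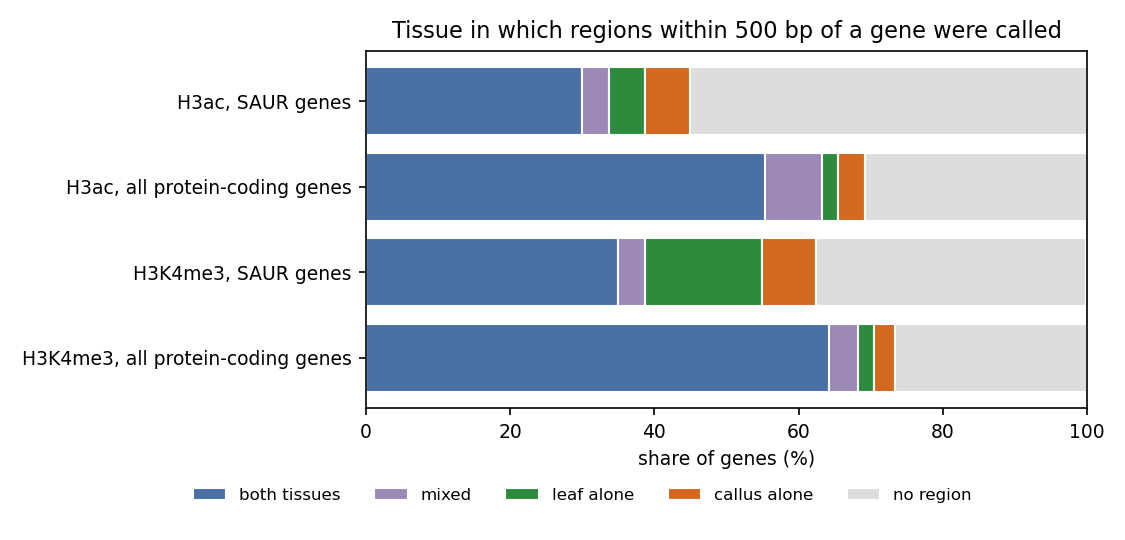
Share of genes (percent, horizontal axis) by the tissue in which their regions were called, for the 80 SAUR genes and for all 27444 protein-coding genes, with 1 bar per mark and gene set. The green part (H3K4me3 called in leaf alone) spans 16.2% of SAUR genes and 2.13% of all genes, and the grey part (no region) is longer for SAUR genes in both marks.

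H3K4me3 called in leaf alone lay mainly in 3 blocks of neighbouring SAUR genes. The blocks were chosen after their values were seen, so the counts below follow partly from that choice. The blocks hold 19 SAUR genes and 10 other protein-coding genes. An H3K4me3 region lay over the gene body of 12 of the 19, against 68.5% of all genes. For 11 of these 12 it was called in leaf alone, against 3.53% of all genes with a region over the body. No member of the 3 blocks had an H3K4me3 region called in callus alone. Over all genes with an H3K4me3 region, 3.99% were in callus alone, and 0 of 13 members lies near that share.

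The SAUR61 to SAUR68 block on chromosome 1 spans 21.9 kb and holds 8 members, among them SAUR63, which promotes elongation of hypocotyls and flower organs. Its H3K4me3 regions over gene bodies numbered 5, and all 5 were called in leaf alone. The SAUR62 region (10302575 to 10303329, TAIR10) was 755 bp long, had a score of 155.9 and covered 89.3% of the gene. The SAUR64 region (10305751 to 10306350, 600 bp) had a score of 108.8 and covered 57.5% of its gene. At SAUR63 (10304659 to 10305005, 347 bp) the score was 74.6 and the cover 57.6%. Lower scores belonged to SAUR65 (10307751 to 10308027, 277 bp, score 48.5) and AT1G29510 (10322890 to 10323080, 191 bp, score 36.3). SAUR62 thus had the longest region and the highest score of the 5, and AT1G29510 the shortest and lowest. The SAUR63 region also lay over the overlapping gene AT1G29435, so it cannot be given to SAUR63 alone. SAUR61 had no H3K4me3 region over its body: its regions were those of its neighbours PAI3, called in both tissues, and SAUR62. AT1G29490 and SAUR66 had no region of either mark.

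The SAUR19 to SAUR24 block on chromosome 5 spans 21.5 kb and holds 6 members. SAUR19, whose stabilised protein drives hypocotyl cell expansion, had no region of either mark, and neither had SAUR22. H3K4me3 regions called in leaf alone lay over AT5G18030 (5968377 to 5969122, 746 bp, score 208.0), SAUR24 (5983737 to 5984108, 372 bp, score 76.1) and SAUR20 (5966194 to 5966639, 446 bp, score 75.6). They covered 88.9%, 59.4% and 74.0% of these genes. SAUR23 was the exception, with an H3K4me3 region of score 116.8 called in both tissues.

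The SAUR26 to SAUR29 block on chromosome 3 spans 7.1 kb and holds 5 members, SAUR73 among them. Members of this group are known for natural variation that affects growth in warmth. H3K4me3 in leaf alone lay over SAUR29 (976822 to 977297, 476 bp), with a score of 99.6 and 62.6% of the gene covered. It also lay over SAUR27 (981369 to 981608, 240 bp, score 39.3) and SAUR26 (983189 to 983339, score 25.0). The SAUR26 region was 151 bp long, the shortest length in the list. SAUR28 and SAUR73 had no region of either mark. A further H3K4me3 region within the window of SAUR29, called in both tissues, lay over its neighbour EDA30.

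H3ac lay over 3 of the 19 gene bodies in these blocks, while 33.8% of all SAUR bodies and 63.4% of all gene bodies had it. The 3 were those of SAUR64 (10306265 to 10306415, 151 bp, score 39.2), SAUR23 (5976101 to 5976297, 197 bp, score 49.0) and SAUR24 (5983854 to 5984004, 151 bp, score 33.6). It was called in leaf alone at all 3, against 3.95% of all genes with H3ac over the body. Genes in these blocks are close copies of each other, so a read can map to more than one of them, and how such reads were treated is not given in the sources used here. Which copy carried a call is therefore uncertain.

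**Figure D2:**
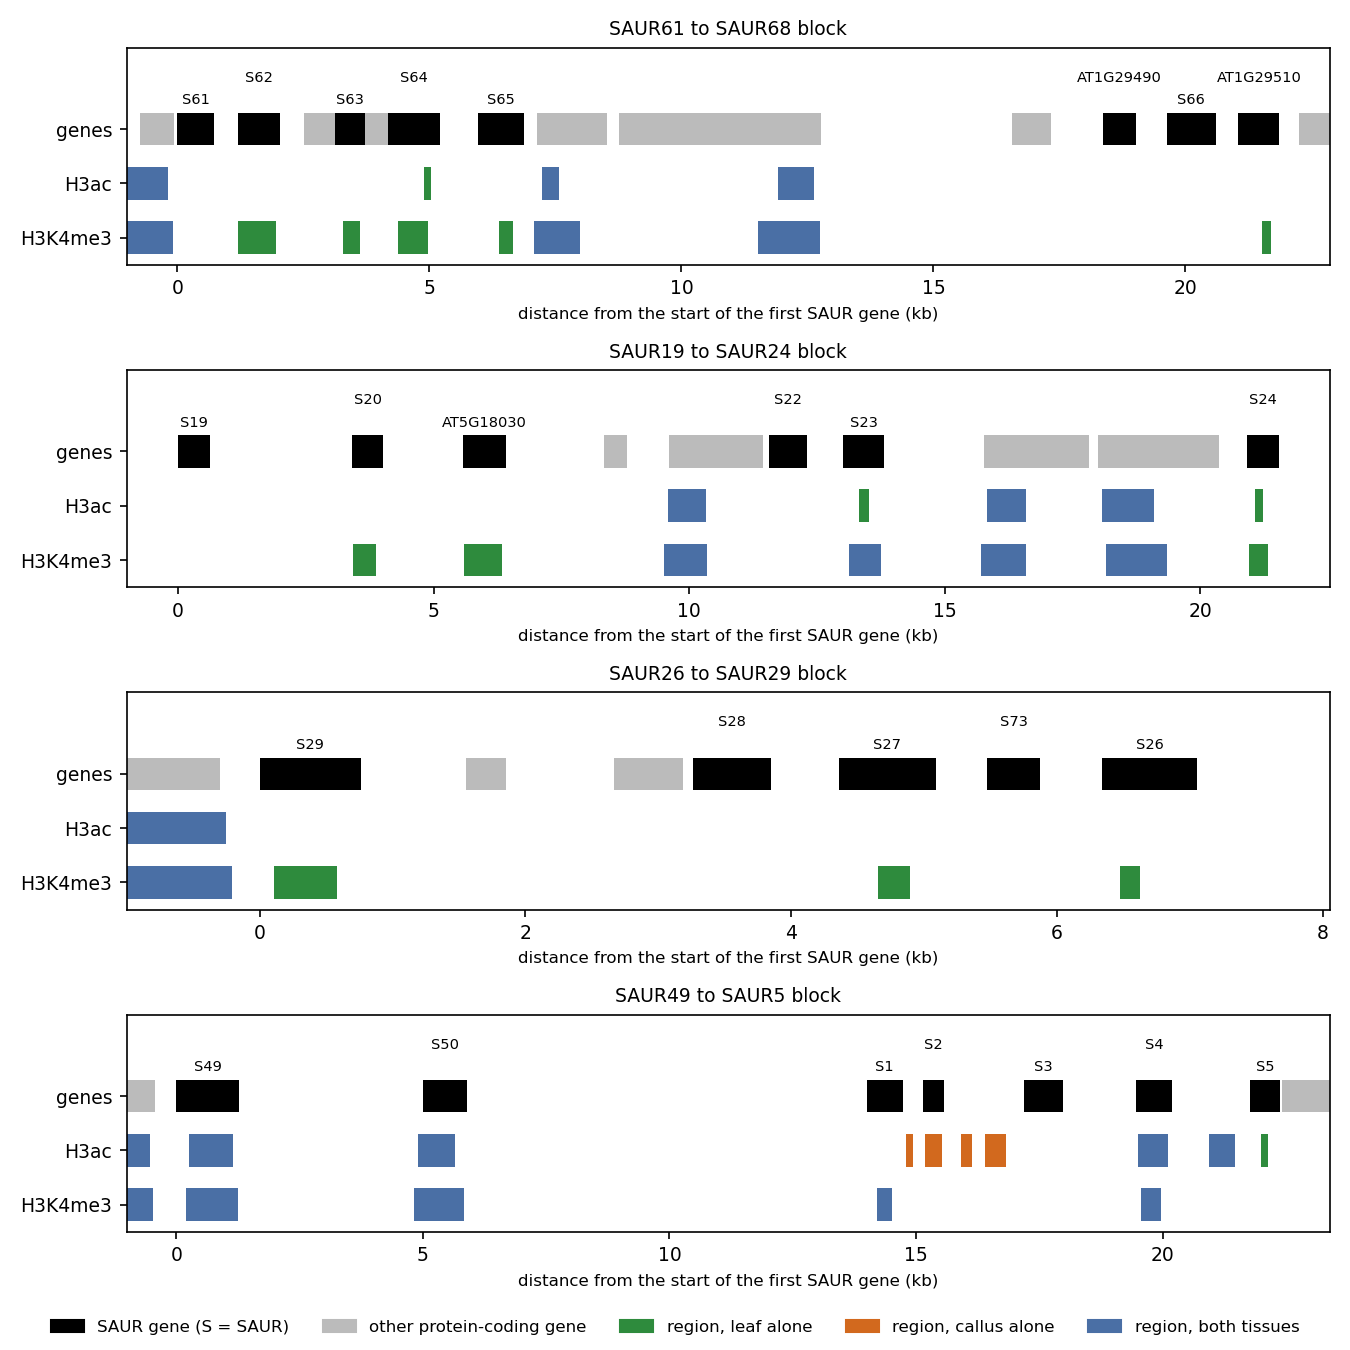
Maps of 4 blocks of neighbouring SAUR genes, with distance from the start of the first SAUR gene in kb on the horizontal axis; black boxes are SAUR genes, grey boxes other protein-coding genes, and coloured boxes the merged regions of each mark by the tissue of the call. In the upper 3 blocks 11 of the 12 SAUR gene bodies with H3K4me3 have leaf-alone regions (green), while in the SAUR49 to SAUR5 block all 4 have regions called in both tissues (blue).

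The SAUR49 to SAUR5 block on chromosome 4, the longest run of SAUR genes with no other protein-coding gene between them, gave another picture. It spans 22.4 kb and holds 7 members, of which SAUR50 is known for the opening of cotyledons in light. H3K4me3 lay over SAUR49 (score 536.7), SAUR50 (324.0), SAUR4 (61.3) and SAUR1 (46.7), called in both tissues each time, and reached none of the other 3. H3ac came within 500 bp of all 7. It was called in both tissues over SAUR49, SAUR50 and SAUR4, and in leaf alone over SAUR5 (16599175 to 16599325, 151 bp, score 33.6), where a region 310 bp away was called in both.

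Between SAUR1 and SAUR3 lay 4 H3ac regions called in callus alone. Their scores were 32.7, 82.8, 52.1 and 107.4, and only the second lay over a gene body, covering 82.2% of SAUR2. Of the 4, that beside SAUR3 was listed by the authors as higher in callus, where 49.2% of all H3ac regions called in callus alone were. A count of 4 regions is too small to set apart from that share. No H3K4me3 region called in callus alone lay in this block, which lies near the share of 3.99% over all genes with an H3K4me3 region.

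Outside the 3 blocks of close copies, further members had H3K4me3 called in leaf alone. The region of SAUR16, which is induced by light in cotyledons, had the highest score of any SAUR region called in leaf alone. It ran from 18130097 to 18131422 on chromosome 4 (1326 bp), covered the whole gene and had a score of 478.3, at percentile 94.1 of all H3K4me3 regions called in leaf alone. SAUR16 had no H3ac region within 7251 bp of its body. The others were SAUR57 on chromosome 3 (19742921 to 19743248, 328 bp, score 61.8), SAUR71 on chromosome 1 (21017592 to 21017904, 313 bp, score 58.3) and SAUR60 on chromosome 1 (7094502 to 7094750, 249 bp, score 45.5). All 3 covered less of their genes, between 36.6% and 40.8%.

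SAUR71 belongs with SAUR40, SAUR41 and SAUR72 to a subfamily tied to cell expansion, and it differed from them. SAUR72 and SAUR41 had regions of both marks called in both tissues, with H3K4me3 scores of 525.0 and 241.2. SAUR40 had no region of either mark. The H3ac region of SAUR71, unlike its H3K4me3 region, was called in both tissues (score 82.7).

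Most leaf-alone H3K4me3 calls at SAUR genes stood without H3ac. Of the 13 members, 10 had no H3ac region (76.9%), against 44.0% of all genes with H3K4me3 in leaf alone. SAUR64 and SAUR24 had both marks in leaf alone, and SAUR71 is described above. SAUR33 (H3ac region at 22925835 to 22925985 on chromosome 3, 151 bp, score 36.4) and SAUR23 had H3ac in leaf alone and H3K4me3 in both tissues. The 15 distinct leaf-alone H3K4me3 regions had a median score of 74.6, against 94.8 over all nuclear regions of that class. The 5 leaf-alone H3ac regions had a median of 36.4, against 56.0.

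**Figure D3:**
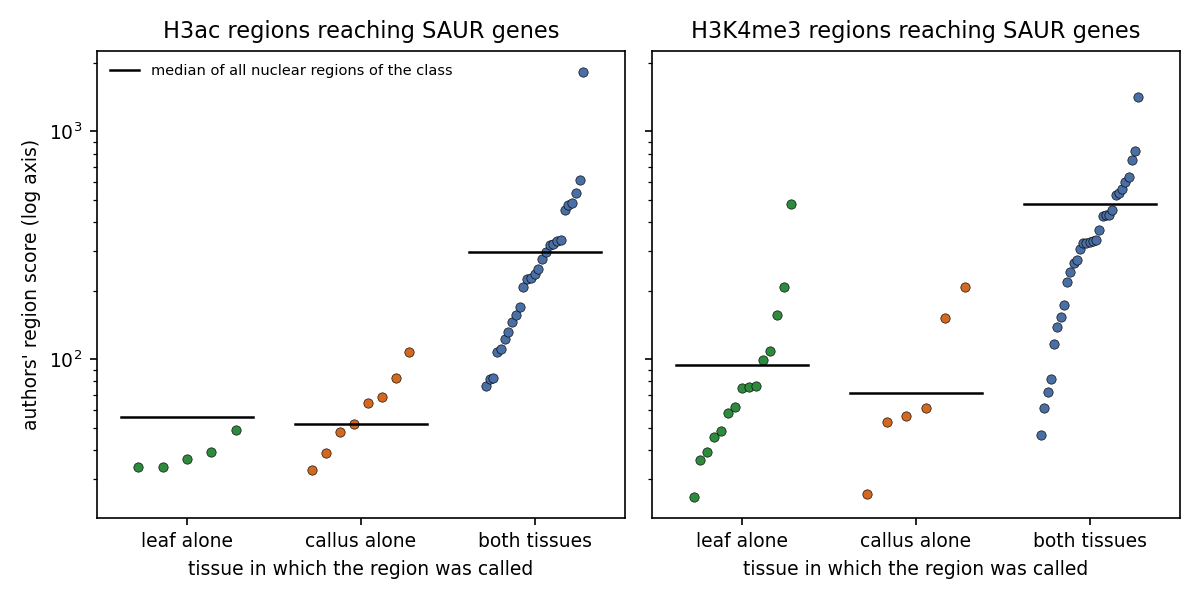
Authors' region score (log axis) of each merged region that reached a SAUR gene, by mark and by the tissue of the call, with 1 point per region; black lines mark the median of all nuclear regions of the class. SAUR regions called in both tissues have medians of 236.1 (H3ac) and 327.8 (H3K4me3), below the medians of 296.3 and 478.3 over all regions.

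On the callus side, 6 SAUR genes were listed by the authors as higher in callus for at least 1 mark. For H3K4me3 these were 5 of the 50 members with a region (10.0%), against 8.01% of all genes. For H3ac they were 3 of 36 (8.33%), against 7.03%. Both shares lie near those of all genes. SAUR8 and SAUR76 were listed for both marks. Intervals below are exact 95% intervals from the tag numbers of both libraries and cover counting error only; since regions were listed for a high fold, folds may lie too high.

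SAUR76 and SAUR70 are neighbours on chromosome 5, and both were listed for H3K4me3. SAUR76 belongs to a group of SAUR proteins reported to act with ethylene receptors in growth. In the authors' deposited table its H3K4me3 region (7046908 to 7047394) held 136.9 scaled callus tags and 63.0 leaf tags, 2.17-fold (1.60 to 2.97). It was the only listed SAUR region that had been called in both tissues, 1 of 31 such H3K4me3 regions (2.35% of all such regions were listed) and 0 of 27 for H3ac (1.11%). In the authors' deposited table the H3ac region of SAUR76, called in callus alone, held 23.7 scaled callus and 6.0 leaf tags, 3.96-fold (1.63 to 11.5).

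SAUR70 had 171.8 scaled callus and 47.5 leaf tags of H3K4me3 in the authors' deposited table, 3.62-fold (2.61 to 5.10). Its region (7043797 to 7044500) was called in callus alone and covered 34.0% of the gene. No H3ac region lay within 1228 bp of SAUR70, and the nearest one was that of SAUR76.

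SAUR8, on chromosome 2, had H3K4me3 from 7186242 to 7186925 and H3ac inside it from 7186617 to 7186812, both called in callus alone. In the authors' deposited table H3K4me3 stood at 123.1 scaled callus and 46.0 leaf tags, 2.68-fold (1.89 to 3.84). H3ac stood at 29.6 and 12 tags in the authors' deposited table, 2.47-fold (1.27 to 5.16). The leaf library thus held tags of both marks at SAUR8 although no region was called there.

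SAUR38 (AT2G24400) had the largest fold and the thinnest leaf value. The authors' deposited table gave 54.6 scaled callus tags and 1.0 leaf tag of H3K4me3, 54.64-fold (9.40 to 2190). Its region (10378270 to 10378420) was 151 bp long and covered 8.93% of the gene, and its score of 25.7 was at percentile 5.4 of callus-alone regions. No H3ac region lay within 859 bp of SAUR38. SAUR45 had 77.8 and 32.5 tags of H3K4me3 in the authors' deposited table, 2.39-fold (1.57 to 3.72), and no H3ac region.

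SAUR3 was listed for H3ac alone, through the region in the SAUR49 to SAUR5 block. In the authors' deposited table this region (16593575 to 16594007) held 43.8 scaled callus and 18.5 leaf tags, 2.37-fold (1.39 to 4.23). It ended 355 bp from the body of SAUR3, so without the flanks SAUR3 was not counted.

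At 4-fold or more, 1 of the 5 H3K4me3 members (SAUR38) and 0 of the 3 H3ac members were left, which is 2.0% and 0% of members with a region, against 3.16% and 1.78% of all genes. The lower bound of the interval lay above 2 for SAUR38 and SAUR70 alone, both for H3K4me3, which is 4.0% of members against 4.72% of all genes, and for 0 members for H3ac, against 1.92%. These shares lie near those of all genes.

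**Figure D4:**
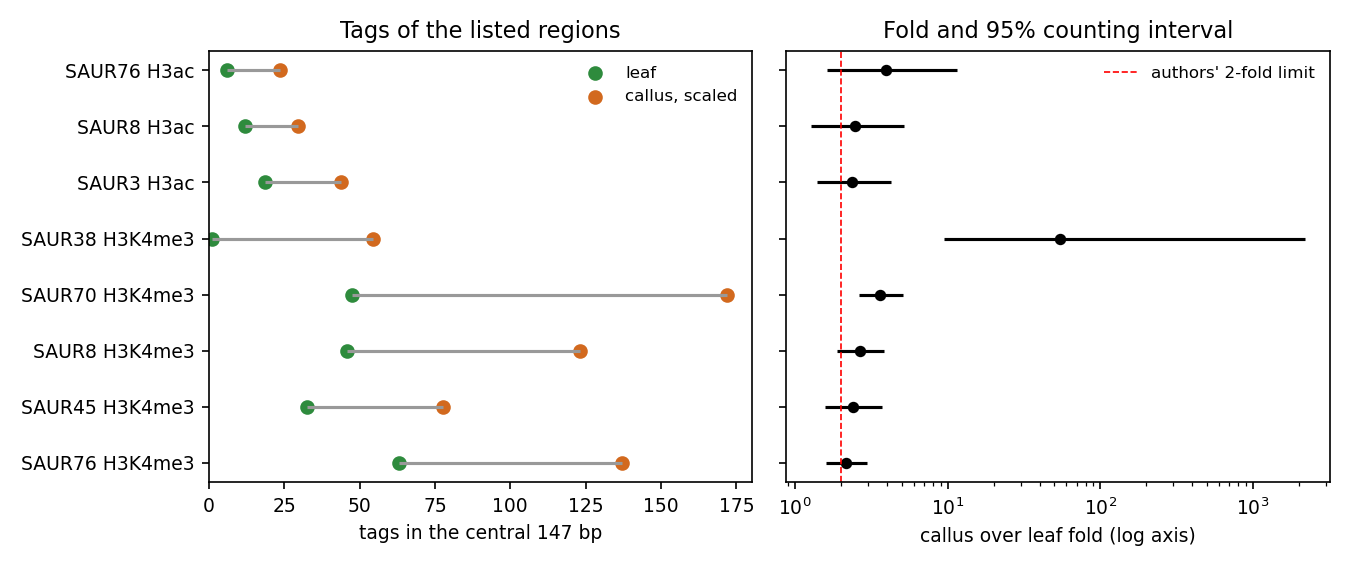
Left, tags in a window at the centre of each SAUR region in the authors' deposited table, in leaf (green) and in callus after scaling (orange); right, the callus over leaf fold on a log axis with its exact 95% counting interval, and the authors' 2-fold limit as a dashed line. Leaf tags run from 1.0 (SAUR38) to 63.0 (SAUR76, H3K4me3), and 6 of the 8 intervals reach below 2.

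Some SAUR regions called in callus alone came without a listed difference, at shares near those of all such regions. Among 8 distinct H3ac regions near SAUR genes called in callus alone, 3 were listed as higher (49.2% of all such H3ac regions were). Among 6 such H3K4me3 regions, 4 were listed (72.1% of all such regions were). The 2 not listed lay over SAUR9, whose protein is known to inhibit D-clade phosphatases, and over SAUR30. Their scores were 56.3 and 60.9. SAUR30 had H3ac called in both tissues (score 131.3), and SAUR9 had no H3ac region. The deeper H3ac callus library stands beside these H3ac calls, and its part in them was not tested. The callus-alone H3ac regions beside SAUR78 and SAUR79 lay 270 and 334 bp outside these genes, which also had H3ac over their bodies called in both tissues.

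In 19 of the 33 SAUR genes with both marks, every region was called in both tissues, against 14345 of 18525 over all genes. These were SAUR4, SAUR7, SAUR32, SAUR34, SAUR35, SAUR36, SAUR41, SAUR49, SAUR50, SAUR51, SAUR52, SAUR53, SAUR56, SAUR59, SAUR69, SAUR72, SAUR74, SAUR77 and AT5G01830. SAUR32, which acts in the apical hook, had scores of 111.1 for H3ac and 173.1 for H3K4me3. Of 33 members with both marks, 22 (66.7%) fell in the same class for both, against 81.6% of all genes. Calls in leaf alone for one mark and in callus alone for the other occurred at 0 of the 33, and at 0.151% of all genes with both marks. Regions called in both tissues covered a median of 74.6% (H3ac) and 82.4% (H3K4me3) of the gene bodies they touched. Leaf-alone regions covered a median of 24.1% and 57.5%, and callus-alone regions 27.3% and 32.5%. This order is not particular to SAUR genes. Over all nuclear regions, those called in both tissues had median lengths of 837 bp (H3ac) and 1058 bp (H3K4me3). The medians were 232 and 467 bp in leaf alone, and 234 and 380 bp in callus alone.

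The highest scores belonged to AT5G01830, with 1823.3 for H3ac and 1410.1 for H3K4me3, at percentiles 99.9 and 99.4 of regions called in both tissues. This locus is 2865 bp long, the longest of the 80, and shares only the name SAUR21 with AT5G18030. Whether it encodes a SAUR protein was not checked, and without it 35 and 49 of 79 members had H3ac and H3K4me3 regions. Next among regions called in both tissues over a member's own body came SAUR59, with 537.7 for H3ac and 628.8 for H3K4me3. SAUR49, SAUR72, SAUR53 and SAUR78 followed for H3K4me3 with 536.7, 525.0, 431.3 and 428.8. SAUR36, a promoter of leaf senescence also called SAG201, had 333.1 for H3ac and 331.3 for H3K4me3, both called in both tissues, and was not listed as higher in callus. The lowest scores of regions called in both tissues were 76.1 for H3ac, 310 bp from SAUR5, and 46.7 for H3K4me3, over SAUR1.

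Windows of 500 bp also caught regions of neighbours. For 7 members with H3ac and 8 with H3K4me3, every region lay mainly over or nearest to another gene. SAUR56, SAUR74 and SAUR77 were of this kind for both marks, with regions called in both tissues that lay 133 to 357 bp from the gene. SAUR7 shared an H3K4me3 region with SAUR6, and SAUR15, the gene first described as SAUR-AC1, was reached solely by a region over SAUR14 and CRK26, 397 bp away. Counting gene bodies alone left 45 members with H3K4me3 (56.2%, against 68.5% of all genes) and 27 with H3ac (33.8%, against 63.4%). On that count H3K4me3 was called in leaf alone at 15 of 45 (33.3%), against 3.53% of all genes, and H3ac at 5 of 27 (18.5%), against 3.95%.

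The 27 members without a region of either mark included SAUR19, SAUR22, SAUR28, SAUR73, AT1G29490 and SAUR66, which lie in the blocks of close copies above. SAUR40, of the subfamily that also holds SAUR41, was another. SAUR10, SAUR11, SAUR12, SAUR13, SAUR17, SAUR18, SAUR25, SAUR31, SAUR37, SAUR39, SAUR42, SAUR43, SAUR44, SAUR46, SAUR47, SAUR48, SAUR54, SAUR55, SAUR58 and SAUR75 completed them. For H3K4me3 the distance from such members to the nearest region ran from 547 bp (SAUR47) to 42696 bp (SAUR58), with a median of 1966.5 bp over the 30 members without one. For H3ac it ran from 631 to 43087 bp in the same 2 genes, with a median of 2939.0 bp over 44 members. A gene without a region had none called at this depth, which does not show that the mark was absent. Of the 80 members, 17 (21.2%, against 5.84% of all genes) had H3K4me3 without H3ac, SAUR9, SAUR16, SAUR38, SAUR45 and SAUR70 among them. SAUR2, SAUR3 and SAUR5 (3.75%, against 1.66%) had H3ac without H3K4me3.

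The auxin growth pathway around SAUR proteins was read from 34 genes listed by locus. Of these, 29 had H3ac and 31 had H3K4me3, called in both tissues only at 23 and 26, and 3 and 5 of them were listed as higher in callus. Over all genes 69.2% had H3ac and 73.3% H3K4me3, and of those 80.1% and 87.7% were called in both tissues only and 7.03% and 8.01% listed. All 6 auxin receptor genes of the TIR1 and AFB family had both marks called in both tissues only, and 0 were listed, which lies near the shares over all genes. Of the 9 D-clade PP2C phosphatase genes, the targets of SAUR proteins, 8 had H3ac and 9 had H3K4me3. For both marks 0 were listed, which also lies near the shares over all genes. AT5G02760 had H3K4me3 in leaf alone and no H3ac region. Over all genes with an H3K4me3 region, 2.90% were in leaf alone. H3K4me3 regions of AT5G66080 mixed calls in leaf alone and in both tissues. H3ac regions of AT4G33920 mixed calls in callus alone and in both tissues.

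Proton pump genes, whose products the phosphatases act on, had 1 listed of the 7 with H3ac and 3 listed of the 8 with H3K4me3, from 11 genes, beside the shares of 7.03% and 8.01% over all genes. In the authors' deposited table HA2 had 215.1 scaled callus and 74.0 leaf tags of H3K4me3, 2.91-fold (2.22 to 3.84). For the same mark the authors' deposited table gave HA3 a fold of 2.16 (1.42 to 3.36) and HA4 a fold of 2.1 (1.42 to 3.15). HA1 was listed for H3ac, where the authors' deposited table gave a fold of 2.22 (1.10 to 4.88). By the authors' deposited table the receptor-like kinase gene TMK1 stood 2.36-fold higher in callus for H3ac (1.35 to 4.35). Among transcription factor genes, ARF19 had an H3K4me3 fold of 2.24 (1.77 to 2.86), as the authors' deposited table lists it. For BZR1, the brassinosteroid factor, the authors' deposited table held an H3ac fold of 2.22 (1.16 to 4.53) and an H3K4me3 fold of 2.02 (1.48 to 2.77).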

How the data were processed

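Tools named without roles, per the submitters' processing notes, are HOMER 4.10.4, SAMtools 1.11 and Bowtie2 2.3.4.3, and the build is TAIR10. How reads were filtered, and how reads with several matches were treated, is not given in the sources used here. Per the file headers, regions were called per library and merged with HOMER mergePeaks; the deposited score of a region was used only to describe regions within a list. Per the file headers, callus was compared with leaf in HOMER by tags in a narrow window at each region centre (2-fold, Poisson p 0.01, higher in callus). The deposited tag signal holds callus tags scaled to leaf, and the deposited fold is their ratio. The deposited p-value treats the leaf number as exact and was not used. No input library enters the tables.

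Overlaps (1 bp or more of the gene body ± 500 bp) and exact conditional intervals were computed with Python 3.11.15, pandas 2.3.3 and SciPy 1.17.1, taking a tag as 1 read, and tested on simulated data. Leaf tag values lay on steps of 0.5, so how a tag relates to a read is uncertain. The simulated tags were whole counts and did not test this. PCR copies make intervals cover counting error only. Depth ratios came from the spacing of tag values. The gene table (TAIR10.1) has no strand, so starts were not used; shifting H3K4me3 region centres by up to 4000 bp in steps of 500 bp gave the highest share inside genes at no shift on all 5 chromosomes. Only TAIR10 region coordinates are printed. Shares over all 27444 genes used the same rules. All SAUR members listed as higher, or with a region in leaf alone, are named; of the 34 pathway genes, chosen by locus, up to 6 with the largest fold are named, and HA4 was added after its value was seen. Members, lists, subfamilies and blocks were chosen with earlier results of these data known, and the blocks after their values were seen. Window, gene assignment, score and fold limits were varied.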

Additional observations from a re-analysis of the deposited data

How the results depend on the processing

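Of 44 alternative counts for 8 results, 31 stayed within 1.5 times the reported count. The 44 include settings that were not planned. These left out AT5G01830, left out the arrays of near copies, or took the class of the region that covers most of the gene. Keeping only regions at or above the median score of their list left 13 members with H3ac (16.2%, against 46.5% of all genes) and 9 with H3K4me3 (11.2%, against 45.2%). Under that setting leaf alone fell to 0 (H3ac) and 1 (H3K4me3, SAUR16), and callus alone to 0 for both marks. Over all genes with such a region it left 0.494% (H3ac) and 0.565% (H3K4me3) in leaf alone, and 0.956% and 0.323% in callus alone. A limit of 4-fold left 0 (H3ac) and 1 (H3K4me3) members listed as higher, and a lower bound above 2 left 0 and 2. Counting gene bodies alone put 3 members in callus alone for H3ac, in place of 5. Chosen after seeing the data, leaving out the arrays SAUR19 to SAUR24 and SAUR61 to SAUR68 left 1 of 31 members in leaf alone for H3ac (3.23%) and 6 of 40 for H3K4me3 (15.0%), against 3.26% and 2.90% of all genes. Without these arrays the H3ac share thus stood near that of all genes. SAUR26 to SAUR29 were kept in this setting, with SAUR26 and SAUR27 among the 6. Widening the window to 1000 bp, or giving each region to 1 gene, kept every count within 1.5 times. At 1000 bp, however, H3K4me3 in callus alone went from 6 members to 4. Its share went from 12.0%, against 3.99% of all genes, to 6.9%, against 3.32%. No replicate could be left out, and depth limits what a missing call can say. No paired analysis was possible because each group has 1 library.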
